A study of Homo sapiens with 9 samples.

Results

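The integrin and laminin genes of WA09 cells, a human embryonic stem cell line, were followed after exposure to DOX and during differentiation in retinoic acid (RA). A gene was a member when its symbol was that of an integrin alpha or beta subunit or of a laminin alpha, beta or gamma chain, and when at least 1 probe set of the array was assigned to it and to no other gene. The rule found 35 genes among the 19775 genes measured, namely 18 integrin alpha subunits, 7 integrin beta subunits and 10 laminin chains, which together had 95 probe sets. For each gene the values are those of its brightest probe set on average. ITGB6, whose probe sets were shared with another gene, was not analysed here.

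Expression was measured on 9 arrays of 1 colour, 3 for each condition. The DOX arrays were from cells labelled as DNA damaged after 5 h of DOX. The RA arrays were from cells kept for 2 days in 1 µM RA in medium without added FGF, and the pluripotent arrays were from untreated cells. All cells came from the same line. They were grown either on irradiated mouse embryonic fibroblasts or without feeders on Matrigel, a basement membrane extract that is itself rich in laminin, and which of these gave each array is not stated. RA and the change of medium cannot be told apart, and DOX and RA also differed in duration. Whether the 3 arrays of each condition stand for separate cultures is not stated, and p-values therefore reflect only how the arrays vary, which may be technical.

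Integrins are heterodimers of an alpha and a beta subunit that span the plasma membrane, bind proteins of the extracellular matrix outside the cell and connect them to actin inside it. Laminins are cross-shaped trimers of an alpha, a beta and a gamma chain and form the sheet of the basement membrane, to which integrins with ITGA3, ITGA6 or ITGA7 bind. Pluripotent human cells are known to attach to laminins that contain LAMA5 through ITGA6 paired with ITGB1, and to vitronectin through ITGAV paired with ITGB5.

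The sequences at the start sites of members that are described in detail below are given first, because these genes moved with DOX, with RA or with both. Each is a window of RefSeq on the build GRCh38.p14, from 250 bases before to 50 bases after the start of a transcript and 300 bases in all, and is written from 5′ to 3′ on the strand of the gene. RefSeq windows were matched for 24 of the 35 members, and where a gene had several the window with the most CpG dinucleotides was taken. ITGA3, ITGA7 and LAMC3, which were also called against pluripotent cells, had no matched window. Capitals mark GGGCGG, the box bound by SP1, TGACTCA, the element bound by AP-1, and AGGTCA, the core repeat bound by nuclear receptors, each searched on both strands. ITGAV (chr2:186589806-186590105, plus strand) and ITGA5 (chr12:54419217-54419516, minus strand) encode alpha subunits, ITGB5 (chr3:124887316-124887615, minus strand) a beta subunit, and LAMC1 (chr1:183023170-183023469, plus strand) and LAMA2 (chr6:128882888-128883187, plus strand) laminin chains.
ITGAV: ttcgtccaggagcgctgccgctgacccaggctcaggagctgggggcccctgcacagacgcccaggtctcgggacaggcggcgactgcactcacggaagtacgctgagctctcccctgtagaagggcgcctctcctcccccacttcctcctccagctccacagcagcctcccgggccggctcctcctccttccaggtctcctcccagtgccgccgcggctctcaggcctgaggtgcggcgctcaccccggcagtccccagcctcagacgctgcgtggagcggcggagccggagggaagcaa
ITGA5: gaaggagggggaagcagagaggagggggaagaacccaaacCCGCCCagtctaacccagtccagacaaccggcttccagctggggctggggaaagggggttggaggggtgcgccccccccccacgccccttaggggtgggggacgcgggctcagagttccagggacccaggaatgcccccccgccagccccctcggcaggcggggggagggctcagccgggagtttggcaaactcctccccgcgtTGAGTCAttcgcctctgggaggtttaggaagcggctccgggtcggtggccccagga
ITGB5: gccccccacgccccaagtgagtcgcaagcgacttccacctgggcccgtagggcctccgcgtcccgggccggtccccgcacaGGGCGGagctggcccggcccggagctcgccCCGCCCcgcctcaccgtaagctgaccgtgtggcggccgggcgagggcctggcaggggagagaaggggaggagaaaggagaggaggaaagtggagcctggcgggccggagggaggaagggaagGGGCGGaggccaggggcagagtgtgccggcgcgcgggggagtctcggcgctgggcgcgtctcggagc
LAMC1: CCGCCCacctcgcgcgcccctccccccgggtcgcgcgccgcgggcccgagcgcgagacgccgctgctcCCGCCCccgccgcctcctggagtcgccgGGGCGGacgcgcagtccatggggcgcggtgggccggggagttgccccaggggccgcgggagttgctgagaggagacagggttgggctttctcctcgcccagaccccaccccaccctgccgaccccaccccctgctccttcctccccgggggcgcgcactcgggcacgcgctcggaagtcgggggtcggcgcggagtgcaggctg
LAMA2: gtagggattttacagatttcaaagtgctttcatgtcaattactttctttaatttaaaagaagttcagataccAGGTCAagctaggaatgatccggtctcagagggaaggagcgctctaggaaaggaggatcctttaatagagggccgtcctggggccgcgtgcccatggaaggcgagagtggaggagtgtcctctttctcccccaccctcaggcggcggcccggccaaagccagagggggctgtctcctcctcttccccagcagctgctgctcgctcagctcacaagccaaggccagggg

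The windows differed mainly in their base composition. LAMC1 held 41 CpG dinucleotides, ITGB5 32, ITGAV 23, ITGA5 16 and LAMA2 10, against a median of 14 over all promoter windows. The windows of ITGB5 and ITGAV were those with the most CpG of 3 and 2, while the median was taken without such a choice. Their counts are thus not compared with it like for like. GGGCGG was found at 3 places in LAMC1, 3 in ITGB5 and 1 in ITGA5, and 45% of all 35116 windows hold it. The ITGA5 window held TGACTCA once, as do 4.95% of all windows, and the LAMA2 window held AGGTCA once, as do 13.8%. The ITGAV window held none of these 3 motifs. TATAAA, which 11.5% of windows hold, CCAAT, which 34.6% hold, and the p53 consensus unit, which 6.63% hold, were not found on either strand of these 5 windows. A match describes the letters only and is not a measured binding site.

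Values are given as log2 of the normalised probe intensity. A difference of 1 is thus a doubling. Because probes differ, levels of different genes are compared only roughly, by their place relative to the median of all genes. Measured over the 9 arrays, 15 members lay above the median of all genes (5.96) and 20 below it. A gene was called where its p from a limma fit to all arrays, adjusted by Benjamini and Hochberg over all genes, was below 0.05. DOX and RA were each compared with the same pluripotent arrays, so these comparisons share their controls, and RA was also compared with DOX directly.

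After DOX, 4 members rose and 1 fell among the 35, which is 14.3% of them, against 15.3% of all genes called in either direction. The share of all genes was 5.67% for higher and 9.6% for lower calls. The genes that rose encode alpha subunits (ITGA3, ITGA5, ITGA7 and ITGAV), and the gene that fell encodes a beta subunit, ITGB5. Of the 10 laminin chains limma called 0 after DOX, and 1 had an unadjusted p under 0.05; their changes lay between -0.22 and 0.24. After RA, 0 members rose and 5 fell (ITGAV, ITGB5, LAMA2, LAMC1 and LAMC3), again 14.3%, against 6.47% of all genes in either direction, 3.16% higher and 3.32% lower. At an unadjusted p under 0.05, 6 members were higher and 3 lower after DOX, where 10.5% and 16.7% of all genes were. At the same threshold 2 members were higher and 10 lower after RA, where 8.03% and 9.4% of all genes were. Fewer cells of a type and less RNA per cell cannot be told apart in these bulk samples.

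The median change over all members was 0.04 after DOX and -0.06 after RA, and over all genes both medians were -0.00. The DOX arrays of 8 members lay wholly above or below the pluripotent arrays, 6 above and 2 below, where 28.9% of all genes did so in either direction, 11.5% above and 17.4% below. The RA arrays of 10 members were apart from the pluripotent arrays, 1 above and 9 below, where 22.6% of all genes were, 10.2% above and 12.5% below. The plot of changes of all 35 genes shows this spread, in which most members lay close to no change in both comparisons.

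**Figure D1:**
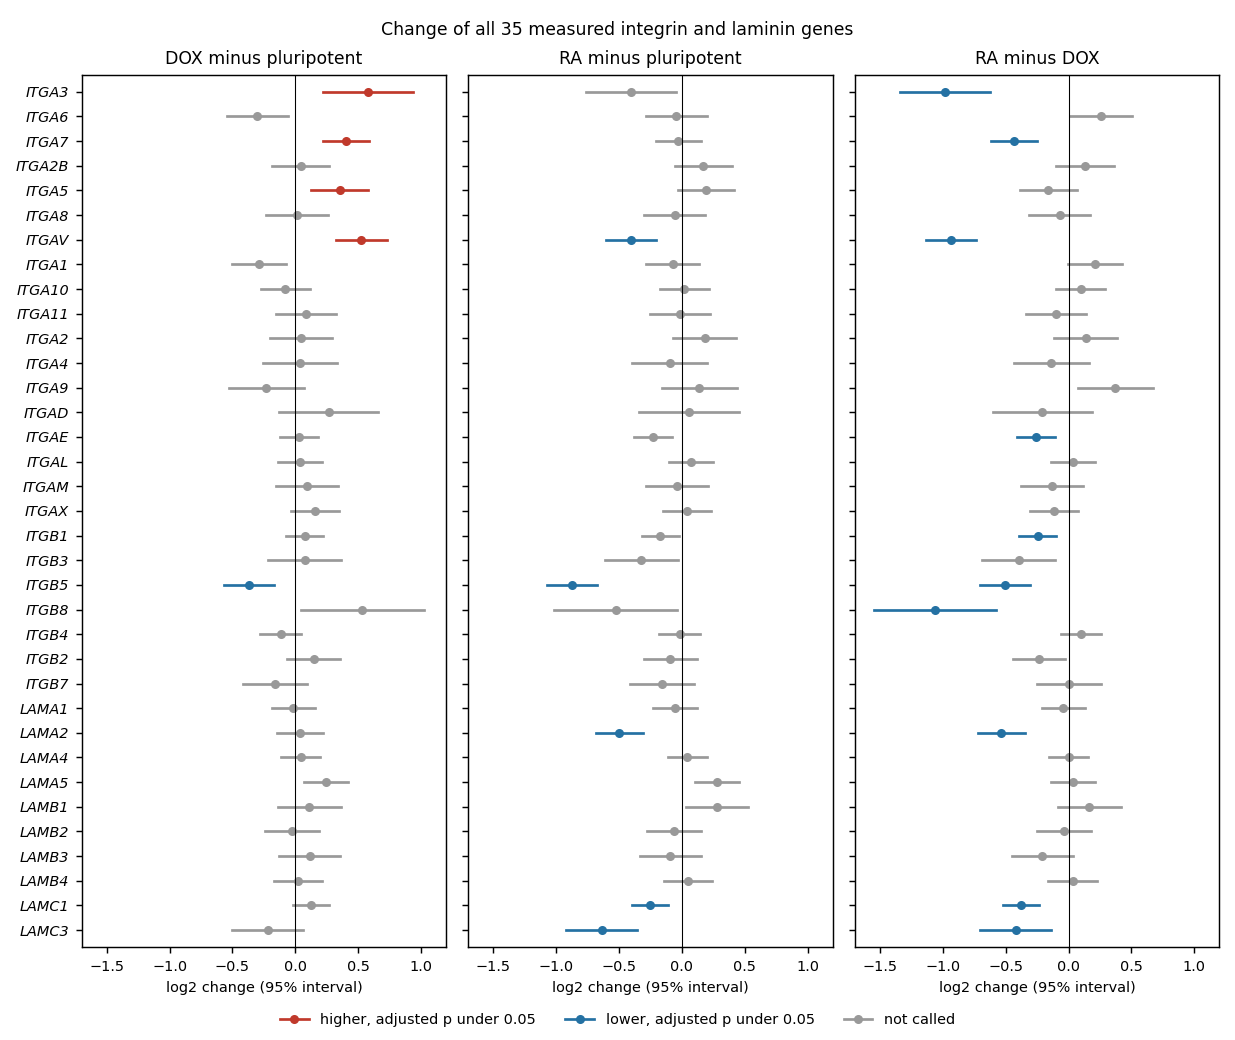
Change of each of the 35 integrin and laminin genes on the log2 scale (x axis) with its 95% interval from the limma fit, for DOX minus pluripotent, RA minus pluripotent and RA minus DOX, with 3 arrays per condition. Coloured points passed the adjusted threshold; 4 alpha subunits stand to the right after DOX, and all 10 genes called in RA minus DOX stand to the left.

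Among the alpha subunits that bind laminin, ITGA3 and ITGA7 rose after DOX and ITGA6 did not pass the test. ITGA3, the partner of ITGB1 in the main laminin receptor of many epithelia, read 6.36, 6.07 and 6.33 on the DOX arrays, 5.73, 5.05 and 5.04 on the RA arrays and 5.73, 5.68 and 5.62 on the pluripotent arrays. All 3 DOX arrays were above all others, and 2 of the 3 RA arrays were below all others. The rise after DOX was 0.58 ± 0.16 (SE, adjusted p = 0.035), a 1.49-fold difference. The call was not kept without DOX array 1 or 3 or without any 1 of the pluripotent arrays, where the difference was 0.52 to 0.60. The RA difference of -0.40 ± 0.16 did not pass (adjusted p = 0.21).

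ITGA7, the main laminin-binding alpha subunit of skeletal muscle, was tight on the DOX arrays at 8.40, 8.38 and 8.35. The RA arrays gave 8.07, 7.86 and 7.91, and the pluripotent arrays 7.99, 7.85 and 8.09. The DOX arrays did not overlap with the other arrays, while RA and pluripotent arrays did. DOX raised it by 0.40 ± 0.08 (adjusted p = 0.0071), and its other probe set changed by the same 0.40 and was also called. RA gave -0.03, with a 95% interval of -0.21 to 0.15.

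ITGA6, the laminin receptor subunit known from the attachment of pluripotent cells, showed 9.28, 9.52 and 9.07 after DOX, 9.42, 9.64 and 9.58 after RA and 9.69, 9.57 and 9.52 in pluripotent cells. The DOX arrays lay below the pluripotent arrays, the nearest of them narrowly, but the difference of -0.30 (95% interval -0.55 to -0.06, not adjusted) did not pass over all genes (adjusted p = 0.10). After RA the difference was -0.04 (interval -0.29 to 0.20).

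**Figure D2:**
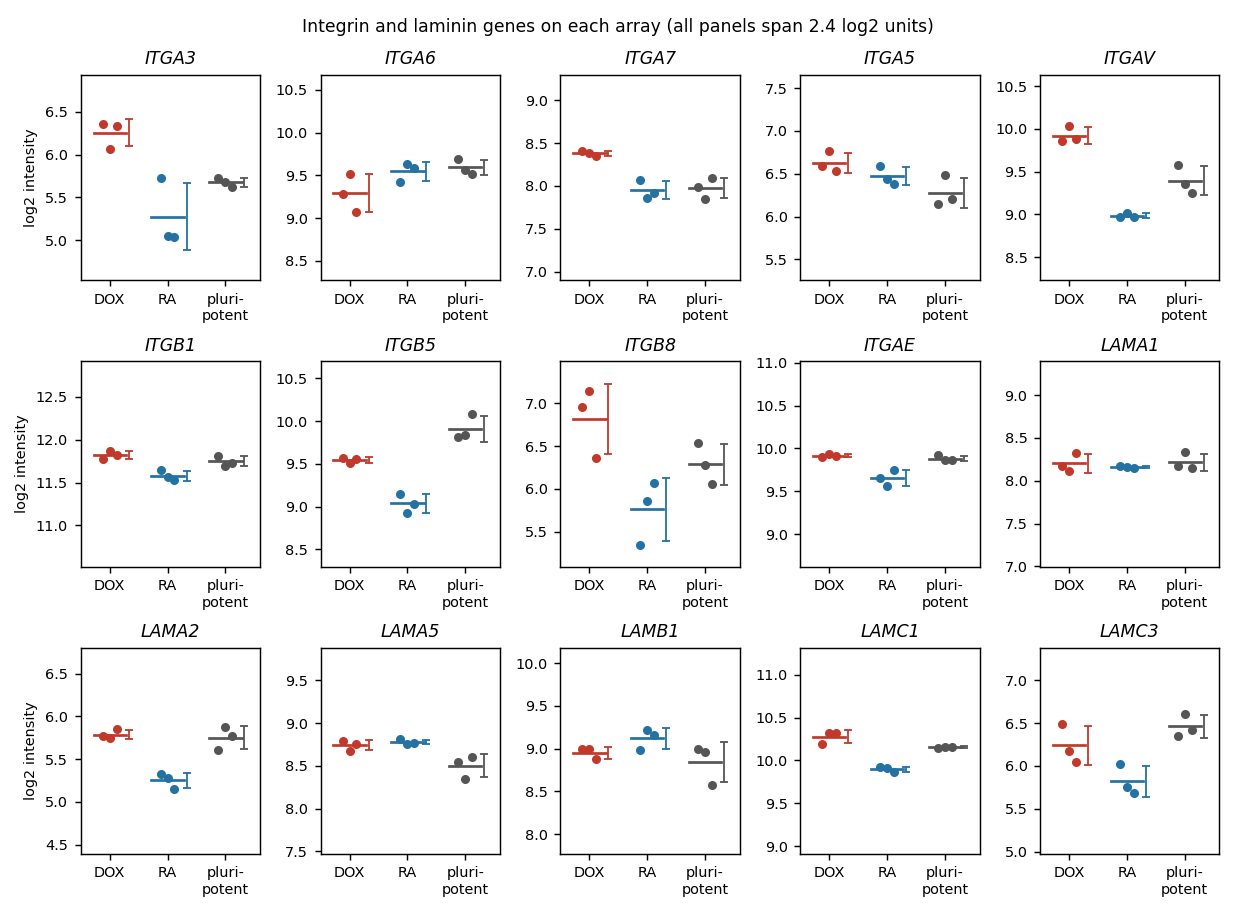
Log2 level (y axis) of the 15 described integrin and laminin genes on each array, with DOX left, RA in the middle and pluripotent right; points are arrays, lines are means and bars are SD (n = 3 each), and every panel spans the same 2.4 units. ITGAV is high on the DOX and low on the RA arrays, while ITGB5 is lower on both than on the pluripotent arrays.

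The alpha subunits that recognise the RGD motif of fibronectin, vitronectin and related proteins included the member with opposite calls. ITGAV, the partner of several beta subunits in vitronectin and latent TGF-beta receptors, measured 9.85, 10.03 and 9.88 after DOX, 8.97, 9.02 and 8.98 after RA and 9.58, 9.35 and 9.25 in pluripotent cells. The 3 conditions did not overlap. ITGAV rose by 0.53 ± 0.09 after DOX (adjusted p = 0.0025), or 1.44-fold, and fell by 0.41 on the log2 scale after RA (adjusted p = 0.020). The DOX call was kept in all 19 alternative settings. The RA call was lost without any 1 of the RA arrays and without pluripotent array 1 or 2, where the difference was -0.43 to -0.32.

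ITGA5, the alpha subunit of the fibronectin receptor, read 6.59, 6.76 and 6.54 after DOX, 6.59, 6.44 and 6.38 after RA and 6.15, 6.48 and 6.21 in pluripotent cells. The lowest DOX array was only slightly above the highest pluripotent array. The DOX difference of 0.35 ± 0.10 passed with an adjusted p of 0.040, and it was not called in 9 of 19 alternative settings, among them the absence of any 1 of the DOX arrays or of pluripotent array 1 or 3 (0.29 to 0.40). RA gave 0.19 (adjusted p = 0.39). The other RGD-binding alpha subunits were ITGA8 and ITGA2B, the platelet subunit. Their differences lay between 0.01 and 0.04 after DOX and neither passed.

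The remaining 11 alpha subunits gave 0 calls in limma after either treatment, and 1 each had an unadjusted p under 0.05 after DOX (ITGA1) and after RA (ITGAE). They are the 4 collagen-binding subunits (ITGA1, ITGA2, ITGA10 and ITGA11), ITGA4 and ITGA9, which bind fibronectin variants, VCAM1 or tenascin, and 5 subunits known from leukocytes (ITGAL, ITGAM, ITGAX, ITGAD and ITGAE). The collagen-binding subunits changed by -0.29 to 0.09 after DOX and by -0.07 to 0.18 after RA. All of these subunits but ITGAE lay below the median of all genes, where normalised values compress fold changes. ITGAE, the partner of ITGB7 on lymphocytes within epithelia, read 9.90, 9.93 and 9.91 after DOX, 9.65, 9.56 and 9.75 after RA and 9.92, 9.87 and 9.86 in pluripotent cells. Its RA arrays were below all others by a small margin, and the RA difference of -0.23 missed the threshold (adjusted p = 0.088). The leukocyte markers were low, with 9 of 9 measured markers below the median of all genes and 0 called after DOX or RA (1 each at an unadjusted p under 0.05).

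Of the beta subunits, ITGB5 was called in all 3 comparisons, as was ITGAV among the alpha subunits. ITGB5 pairs with ITGAV in the vitronectin receptor on which pluripotent cells can be grown. Its values were 9.57, 9.51 and 9.55 after DOX, 9.15, 8.93 and 9.03 after RA and 9.81, 9.84 and 10.09 in pluripotent cells. The conditions formed separate ranges with pluripotent cells highest and RA lowest. ITGB5 fell by 0.37 on the log2 scale after DOX (SE 0.09, adjusted p = 0.017) and by 0.87 after RA (SE 0.09, adjusted p = 0.00014), where its level was 0.546 of that in pluripotent cells. The DOX call was lost without DOX array 2, where the difference was -0.35.

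All 4 probe sets of ITGB5 fell after RA, by -0.87, -0.68, -0.73 and -0.63. After DOX they changed by -0.37, -0.61, -0.42 and -0.40, and 2 of the 4 passed when all probe sets were tested. ITGAV and ITGB5 thus differed in the direction of their calls after DOX and shared it after RA.

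ITGB1, the common partner of the laminin, fibronectin and collagen receptors, varied little, with 11.78, 11.86 and 11.83 after DOX, 11.64, 11.56 and 11.53 after RA and 11.81, 11.70 and 11.73 in pluripotent cells. The RA arrays were below the rest, but neither the DOX difference of 0.07 (95% interval -0.08 to 0.22) nor the RA difference of -0.17 (interval -0.32 to -0.02) passed over all genes (adjusted p = 0.54 and 0.20).

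ITGB8, which forms with ITGAV a receptor for latent TGF-beta, scattered more. It gave 6.96, 7.14 and 6.36 after DOX, 5.35, 5.86 and 6.07 after RA and 6.53, 6.28 and 6.05 in pluripotent cells. Pluripotent arrays overlapped with both treatments, and the differences of 0.53 ± 0.22 after DOX (adjusted p = 0.15) and -0.53 ± 0.22 after RA (adjusted p = 0.24) did not pass. The other beta subunits were ITGB3, ITGB4, ITGB2 and ITGB7. Of these ITGB4, which joins ITGA6 in hemidesmosomes, differed by -0.12 after DOX and -0.02 after RA. ITGB3, a partner of ITGAV, gave 0.07 after DOX and -0.32 after RA (adjusted p = 0.23). In RA against DOX ITGB3 was at -0.40 (adjusted p = 0.056), and its RA arrays lay below all others. Of the 4 subunits 0 were called in any comparison. All 7 beta subunits changed negatively after RA, 4 with an unadjusted p under 0.05, where 9.4% of all genes were lower.

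Of the 10 laminin genes, 3 fell after RA and 0 rose, or 30% lower, against 3.32% of all genes. LAMC1, the gamma chain of most laminin trimers, read 10.19, 10.32 and 10.32 after DOX, 9.92, 9.91 and 9.87 after RA and 10.14, 10.16 and 10.16 in pluripotent cells. The conditions did not overlap, with RA lowest. The RA difference was -0.26 ± 0.06 (adjusted p = 0.040), and the DOX difference of 0.12 did not pass (adjusted p = 0.26). The RA call was lost in 10 of 19 alternative settings at nearly the same size (-0.27 to -0.24 with 1 array left out), including the absence of any 1 of the RA or pluripotent arrays or of DOX array 2. Of its 2 probe sets, neither passed in the fit of all probe sets (-0.26 and -0.22).

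LAMA2, the alpha chain of the laminin around muscle and nerve, lay near the median of all genes, at 5.77, 5.74 and 5.85 after DOX, 5.32, 5.29 and 5.15 after RA and 5.61, 5.87 and 5.77 in pluripotent cells. RA arrays were below all others and the DOX arrays lay within the pluripotent range. LAMA2 fell by 0.50 on the log2 scale after RA (SE 0.08, adjusted p = 0.0044), a call kept in all 18 settings that measured it, although the change was -0.27 when its probe sets were averaged. Its 3 other probe sets gave -0.31, -0.29 and 0.03 and were not called.

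LAMC3, a gamma chain of more restricted expression, was measured at 6.49, 6.18 and 6.05 after DOX, 6.03, 5.75 and 5.69 after RA and 6.35, 6.61 and 6.42 in pluripotent cells. The RA arrays were all below the pluripotent arrays and, narrowly, below the DOX arrays, which overlapped with the pluripotent arrays. The fall after RA was -0.64 ± 0.13 (adjusted p = 0.012). It was not called without RA array 2 or 3 or pluripotent array 2 (-0.60 to -0.56), and its other probe set gave -0.23.

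LAMA5 and LAMB1, which form laminin trimers with LAMC1 in pluripotent cells, were not called after either treatment. LAMA5 had 8.79, 8.67 and 8.76 after DOX, 8.81, 8.76 and 8.77 after RA and 8.55, 8.35 and 8.60 in pluripotent cells. Both treated conditions lay above the pluripotent arrays, by 0.24 ± 0.08 (adjusted p = 0.067) and 0.28 ± 0.08 (adjusted p = 0.068), and neither passed. LAMB1, the beta chain of the same trimers, gave 8.99, 8.998 and 8.87 after DOX, 8.99, 9.22 and 9.16 after RA and 8.99, 8.96 and 8.57 in pluripotent cells. Its ranges overlapped (0.11, adjusted p = 0.58, and 0.28, adjusted p = 0.22).

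LAMA1, the alpha chain of the first basement membranes of the embryo, varied little. It measured 8.17, 8.11 and 8.32 after DOX, 8.17, 8.16 and 8.15 after RA and 8.17, 8.33 and 8.15 in pluripotent cells. Its differences were -0.02 (95% interval -0.19 to 0.16) after DOX and -0.06 (interval -0.23 to 0.12) after RA. Among the other laminins (LAMA4, LAMB2, LAMB3 and LAMB4), changes lay between -0.09 and 0.12 over both treatments and 0 were called, with 0 at an unadjusted p under 0.05. LAMB3 belongs to the laminin of the skin basement membrane, and LAMB2 replaces LAMB1 at the synapse and in the kidney.

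Set against DOX directly, RA gave lower levels for 10 members and higher for 0, or 28.6% of the members, against 21.2% of all genes called in either direction and 8.62% lower. Over all genes 12.6% were called higher. At an unadjusted p under 0.05, 2 members were higher and 12 lower, where 18.2% and 13.7% of all genes were. The 10 genes were ITGA3, ITGA7, ITGAE, ITGAV, ITGB1, ITGB5, ITGB8, LAMA2, LAMC1 and LAMC3. A dimmer probe set of ITGA4 was called higher in the limma fit of all probe sets (0.35, adjusted p = 0.032). The probe set used for ITGA4 gave -0.14 and was not called. The median over members was -0.12, against -0.00 over all genes. The RA arrays lay wholly apart from the DOX arrays for 13 members, 12 below and 1 above (ITGA9), where 34.8% of all genes did so, 15.2% below and 19.6% above. Since agent, duration and medium all differed, the comparison does not separate them.

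The largest of these differences was that of ITGB8, at 5.35, 5.86 and 6.07 on the RA arrays against 6.96, 7.14 and 6.36 on the DOX arrays (-1.06 ± 0.22, adjusted p = 0.0054). These arrays did not overlap, although each treatment overlapped with the pluripotent arrays. A further probe set of ITGB8 was also called, at -0.41, and the remaining 3 were not. The average of its probe sets gave -0.41 as well, and that of LAMA2 gave -0.27. ITGA3 followed at -0.98 ± 0.16 (adjusted p = 0.0014) and ITGAV at -0.93 ± 0.09 (adjusted p = 3.2e-05), where RA cells had 0.507 and 0.523 of the level of DOX cells.

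ITGA7 (-0.43, adjusted p = 0.0033), LAMA2 (-0.54, adjusted p = 0.00096) and LAMC1 (-0.38, adjusted p = 0.0016) were called against DOX by smaller margins. ITGB5 gave -0.51 (adjusted p = 0.0020), and of its 4 probe sets this was the only one called, the others being at -0.07, -0.32 and -0.23 and their average at -0.28. ITGAE (-0.26, adjusted p = 0.020) and ITGB1 (-0.25, adjusted p = 0.024) were separated from DOX by less than 0.3. ITGAE was not called without DOX array 2 or RA array 1 or 2, and ITGB1 without DOX array 2 or 3 or RA array 2 or 3. The other probe sets of ITGB1 gave -0.40, which was called, and -0.34, -0.28, -0.04, -0.10 and 0.01, which were not.

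LAMC3 was at -0.42 (adjusted p = 0.039) in RA against DOX, and lost this call in 8 of 19 settings, among them the absence of DOX array 1 or 2 or RA array 2 or 3. Its other probe set gave 0.00 in this comparison. The plot of single probe sets shows where the probe sets of a gene were together, as in ITGA7, and where they were spread, as in LAMC3 and ITGB8. ITGA3, ITGA5, ITGAE, ITGAV and LAMA5 had 1 probe set each, so that no other probe set was at hand to compare, and ITGA3 and ITGA5 were not called after DOX when p-values were adjusted over all probe sets (adjusted p = 0.060 and 0.072).

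**Figure D3:**
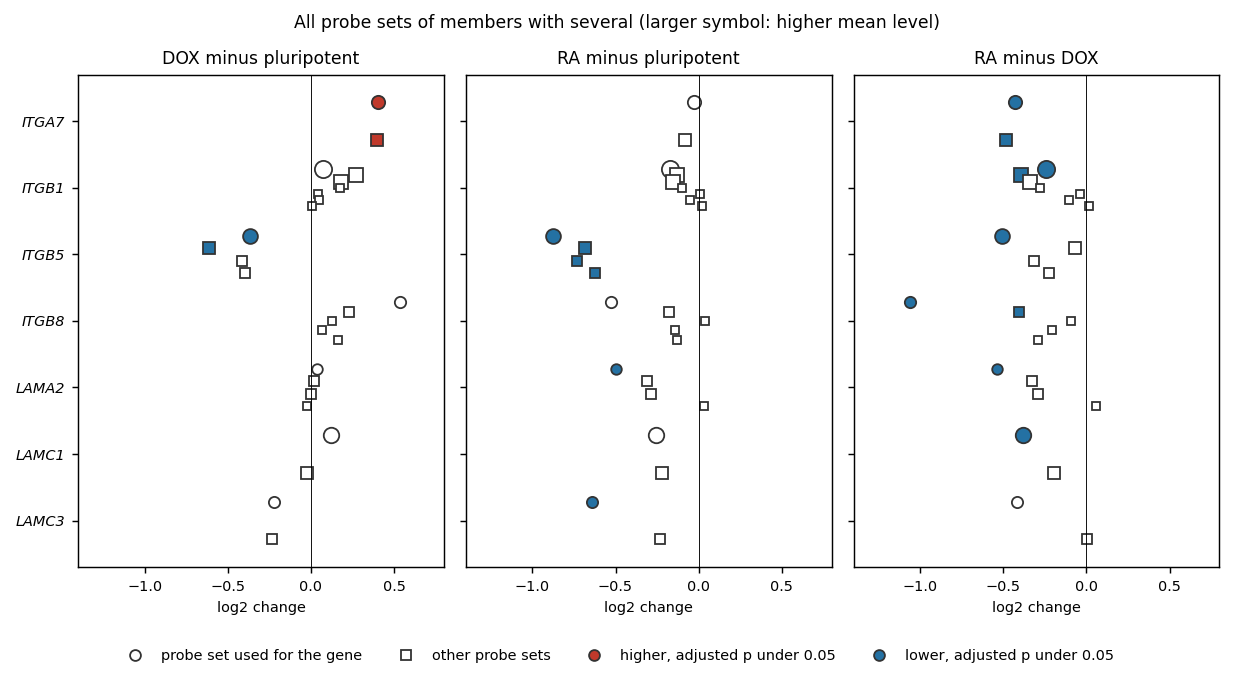
Log2 change (x axis) of every probe set of 7 described genes, for DOX minus pluripotent, RA minus pluripotent and RA minus DOX, from a fit of all probe sets; circles are the probe sets used for the genes, squares the others, larger symbols have a higher mean level, and filled symbols passed the threshold. All 4 ITGB5 probe sets are called lower after RA, while 1 of 4 LAMA2 probe sets is.

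The control probe sets of ACTB, which read the 3′ and 5′ ends of the transcript and so the state of the RNA, moved with this comparison. The 3′ minus 5′ difference had a lowest, median and highest value of 0.831, 1.18 and 1.54 on the RA arrays, against 0.673, 0.695 and 0.813 on the DOX arrays. Those ranges did not overlap, whereas the pluripotent range of 0.628 to 1.09 overlapped with both. The same difference for GAPDH overlapped between RA (0.134 to 0.206), DOX (0.156 to 0.193) and pluripotent arrays (0.145 to 0.189). The part of RNA state in the differences between RA and DOX was not tested.

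Other genes of the pathway were taken from lists of adaptors, ligands, further receptors and basement membrane components. These lists were chosen with earlier results of these data known, so their counts are not an independent test. The list counts stand against the shares of all genes given above, 5.67% higher and 9.6% lower after DOX and 3.16% higher and 3.32% lower after RA. Calls were more frequent among bright genes. When only the 9887 genes above the median level were fitted, 990 rose and 2176 fell after DOX, and 649 and 805 after RA. Of the adaptors 20 of 29 lay above the median of all genes, of the ligands 10 of 18. The further receptors had 10 of 10 above it and the basement membrane genes 11 of 17. The shares of all genes are thus a low bar for these lists. Of 29 measured genes of integrin adaptors and focal adhesions, 8 rose and 3 fell after DOX (median 0.08), and 1 rose and 4 fell after RA (median -0.04). VCL, vinculin, which ties integrin-bound talin to actin, read 12.63, 12.82 and 12.73 after DOX, 10.96, 11.01 and 11.03 after RA and 11.71 on each pluripotent array. It rose by 1.02 ± 0.07 after DOX (adjusted p = 3.2e-06) and fell by 0.71 on the log2 scale after RA (adjusted p = 8.8e-05), so that the conditions lay far outside each other's ranges. When all probe sets of VCL were averaged the changes were 0.55 and -0.32, both still called.

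ZYX, a LIM protein of focal adhesions, rose by 0.87 after DOX, TRIP6, a relative of it, by 0.53, and PXN, the scaffold paxillin, by 0.51. After RA PXN fell by 0.57 and PARVA, which binds the integrin-linked kinase, fell by 0.43, while TNS3, a tensin that links beta tails to actin, rose by 1.01. TNS3 gave 9.35, 9.46 and 9.23 after RA and 8.30, 8.36 and 8.35 in pluripotent cells. When all probe sets of a gene were averaged, TNS3 was at 0.46 after RA and PXN at 0.23 after DOX, both still called, while PXN (-0.24) and PARVA (-0.21) were no longer called after RA.

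The non-laminin ligands of integrins moved over the widest range. Of 18 measured, 6 rose and 0 fell after DOX (median 0.12), and 0 rose and 6 fell after RA (median -0.09). After DOX the largest rises were those of CCN1 (2.70 ± 0.10, adjusted p = 5.5e-08) and CCN2 (2.66 ± 0.11, adjusted p = 8.8e-08), matricellular proteins bound by ITGAV pairs, with THBS1, thrombospondin, and SPP1, osteopontin (1.56). SPP1 was at 0.81 and still called when its probe sets were averaged. THBS1 was at 3.26 on the probe set used and at 1.30 over all its probe sets, but at 0.41 and not called when probe sets with the suffixes x_at and s_at, which can match further transcripts, were left out. The plot of lists shows these named ligands apart from the laminins, whose points lay within 0.3 of no change after DOX. The 12 ligands not called after DOX were at -0.09 to 0.22, within the range of the laminins.

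TNC, tenascin C, a ligand of ITGA9 and of ITGAV pairs, read 6.53, 6.34 and 6.56 after DOX, 3.92, 4.10 and 4.02 after RA and 5.64, 5.62 and 5.62 in pluripotent cells. The 3 ranges were well apart. The fall after RA was -1.62 ± 0.08 (adjusted p = 6.8e-07), and -0.60 and still called when all probe sets of TNC were averaged. SPP1 fell by 0.94 on the log2 scale after RA (-0.52 over its probe sets), and THBS1 and MFGE8, a ligand of ITGAV pairs, each by 0.55. The THBS1 call after RA was lost in 9 of 19 settings, and MFGE8 was at -0.21 and not called without x_at and s_at probe sets.

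**Figure D4:**
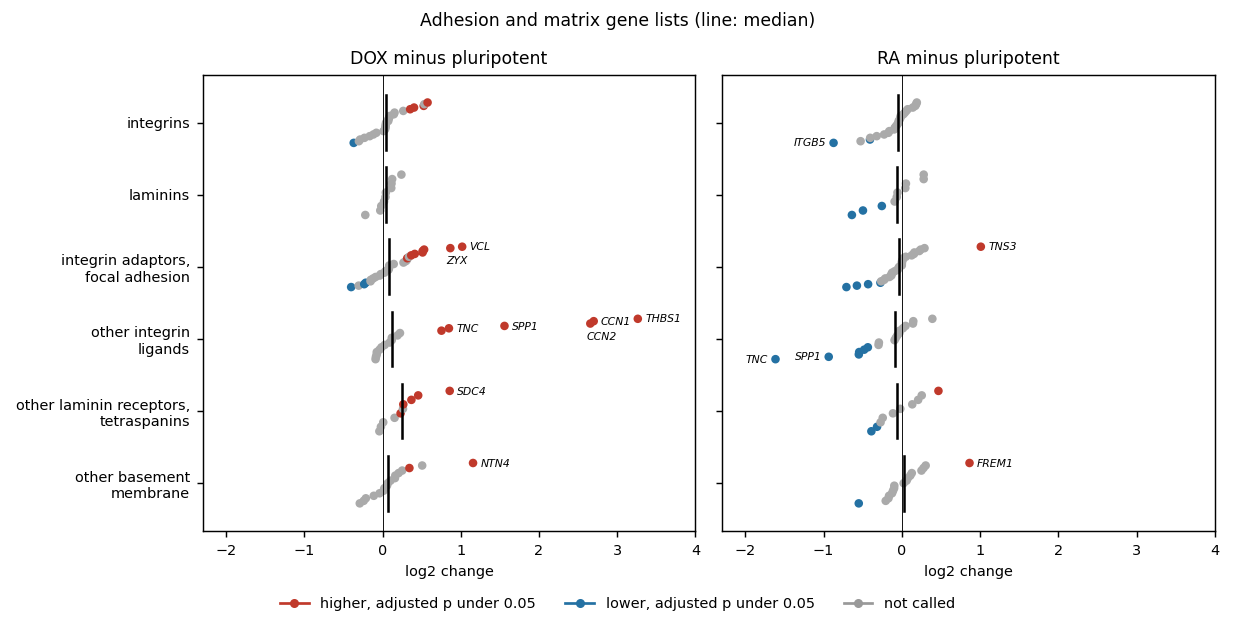
Log2 change (x axis) of each gene of 6 lists after DOX and after RA, each against pluripotent cells (3 arrays per condition); each point is a gene, coloured where called, and the vertical bar is the median of the list. The highest of the other integrin ligands, THBS1 on the probe set used, is at 3.26 after DOX. The 10 laminins stay between -0.22 and 0.24, as do the 12 ligands not called after DOX.

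Among 10 measured genes of other laminin receptors and tetraspanins, which gather integrins in the membrane, 5 rose and 0 fell after DOX (median 0.25), and 1 rose and 2 fell after RA (median -0.07). The syndecans SDC4 (0.86), SDC1 (0.46) and SDC2 (0.37), heparan sulfate receptors for matrix, and the tetraspanin CD151 (0.27), the partner of ITGA3 and ITGA6, rose after DOX. The CD151 call was lost in 12 of 18 settings, among them the absence of any 1 of the DOX or pluripotent arrays. After RA SGCE, a sarcoglycan, rose by 0.47, and SDC2 and the tetraspanin CD9 fell by 0.39 and 0.32. CD9 lost its call in 8 of 19 settings and was at -0.12 over its probe sets.

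Of 17 other basement membrane genes, 2 rose and 0 fell after DOX (median 0.07), and 1 rose and 1 fell after RA (median 0.02), or 11.8% in each comparison, against 15.3% and 6.47% of all genes. NTN4, a netrin that binds laminin gamma chains, rose by 1.16 ± 0.17 after DOX (adjusted p = 0.0010), at 4.65, 4.89 and 4.17 on the DOX arrays against 3.38, 3.51 and 3.36 on the pluripotent arrays, all at low level. AGRN, a heparan sulfate proteoglycan that binds laminin, rose by 0.34, a call lost in 5 of 19 settings. After RA FREM1 rose by 0.86 (0.58 over its probe sets) and SPARC, a collagen-binding glycoprotein, fell by 0.55. The hemidesmosome list held 4 measured genes, of which CD151 rose and ERBIN fell by 0.31 after DOX, and DST fell by 0.40 after RA. DST lost its call after RA when all probe sets were averaged (-0.11), as ERBIN did after DOX (-0.16), and ERBIN changed sign without x_at and s_at probe sets (0.07).

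In RA against DOX, the adaptor list had 5 genes higher and 11 lower, the ligands 0 and 10, the other receptors 1 and 7, the other basement membrane genes 2 and 4 and the hemidesmosome list 0 and 2, where 12.6% of all genes were called higher and 8.62% lower. Their medians were -0.14, -0.31, -0.31, -0.12 and -0.24. Among the 9887 genes above the median level, fitted alone, 2538 were called higher and 1555 lower. The ligands named above, THBS1, CCN1, CCN2, TNC and SPP1, were all called lower, with differences from -3.81 (THBS1) to -2.27 (CCN2) on the probe sets used. THBS1 was at -0.57 and still called without x_at and s_at probe sets, and averages over all probe sets gave -1.53 for THBS1, -1.34 for SPP1 and -0.86 for TNC, all called.

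The cells carried the markers of pluripotent cells in all conditions, with 11 of 11 measured markers above the median of all genes. That bar is low for these markers, whose lowest mean was 9.81. After DOX 0 rose and 1 fell, SOX2, or 9.09% lower, against 9.6% of all genes. All 11 changes after DOX were negative, with a median of -0.13, and the largest, -0.47, was not called. At an unadjusted p under 0.05 in limma, 3 were lower after DOX, where 16.7% of all genes were. In RA against DOX 5 of these markers were called higher and 1 lower, where 12.6% and 8.62% of all genes were. After RA 0 rose and 2 fell, or 18.2% lower, against 3.32% of all genes, and the larger fall was -1.29. The RA arrays of 9 of the 11 markers were apart from the pluripotent arrays, 5 above and 4 below, where 22.6% of all genes were. Of 15 markers of fibroblasts and stromal cells, 5 rose and 1 fell after DOX, or 33.3% and 6.67%, against 5.67% and 9.6% of all genes. After RA 2 of these markers rose and 2 fell, or 13.3% each, against 3.16% and 3.32% of all genes. The mean level of these markers was 6.36 to 6.39 on the DOX arrays, 6.07 to 6.15 on the RA arrays and 6.10 to 6.15 on the pluripotent arrays. The rises after DOX were those of TWIST1 (1.41), COL1A1 (1.08), S100A4 (0.41), THY1 (0.33) and COL5A1 (0.32), and PDGFRA fell by 0.42. COL1A1 averaged 11.45 on the DOX arrays, 11.37 on the RA arrays and 10.37 on the pluripotent arrays. After RA COL1A1 (0.998) and COL3A1 (0.57) rose, and COL6A3 (-0.73) and THY1 (-0.37) fell. Over all arrays 6 of the 15 markers lay above the median of all genes and 9 below it, among them LUM and FAP. The part of such cells, or of the mouse feeders, in the changes after DOX was not tested.

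Of 11 markers of trophoblast and amnion, 4 rose after DOX and 5 after RA and 0 fell. The rises are 36.4% and 45.5% of these markers, against 5.67% and 3.16% of all genes called higher. The largest changes were 1.34 after DOX and 4.55 after RA. The mean level of these markers was 5.67 to 5.82 on the DOX arrays, 6.18 to 6.41 on the RA arrays and 5.34 to 5.38 on the pluripotent arrays. Markers of platelets and of basal epithelium gave 0 calls in limma after either treatment (0 and 1 at an unadjusted p under 0.05). Of 8 endothelial markers 1, KDR, was called lower after DOX, or 12.5%, against 9.6% of all genes. The part of such cells in the member changes was not tested. CDKN1A, the p53 target that checks the DOX label, rose by 3.71 after DOX and by 0.92 after RA, and RARB, which RA induces directly, rose by 2.21 after RA and gave 0.03 after DOX. Both are from a list of 6 treatment checks, with MDM2, GDF15, CYP26A1 and MEIS2. Of the 6, 4 were called higher after DOX and 6 after RA, so several rose with both treatments. In RA against DOX 3 were called higher and 3 lower.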

How the data were processed

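The values analysed are the log2 intensities the authors deposited for each probe set. Per the submitters' processing notes they used RMA and affy, and no version is given in the sources used here. RMA normalises arrays by quantiles, removes shifts shared by most genes and compresses changes of dim probe sets. Of 54675 probe sets, 62 controls were left out; the platform annotation gave 1 gene for 41091, several for 1801 and none for 11721, and only the first were named. Array medians were 4.62 to 4.68, within-condition correlations 0.996 to 0.998, and 0 of 36 array pairs were identical. The number of arrays limits the precision. limma 3.58.1 (R 4.3.3, lmFit, then eBayes) fitted a model of 3 conditions to the 9 arrays without a filter, giving 6 residual degrees of freedom and 4.63 prior ones, with Benjamini-Hochberg adjustment over 19775 genes. Intervals are 95% and not adjusted. The fit was tested on simulated data.

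Members and lists were chosen with earlier results of these data known. Values on every array are given for members called in any comparison and for 9 subunits of the main receptors and trimers of stem cells, and up to 4 called genes with the largest change are named from each pathway list and treatment. Alternatives covered the choice of probe set, normalization, spread, array weights, groups fitted, the replicate block and leaving out each array. Promoter sequences are those of RefSeq, GRCh38.p14. Some items are not reported here.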

Additional observations from a re-analysis of the deposited data

How the results depend on the processing

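The 3 counts of called members were recomputed under 19 alternatives. After DOX (5 called), the count was 3 when every probe set was tested alone, and 3 to 5 with 1 array left out, with 3 without pluripotent array 1. After RA (5 called), it was 8 with a trended and robust spread, 3 of 32 measured members without x_at and s_at probe sets, and 2 to 5 with 1 array left out. It was 2 without RA array 2, RA array 3 or pluripotent array 2, and 3 without pluripotent array 1. RA against DOX (10 called) gave 7 to 11 over all alternatives, and 7 to 11 with 1 array left out. These calls were all lower, save 1 of 8 without DOX array 2, which was higher. Over all genes, the RA count was 852 of 17098 without x_at and s_at probe sets, against 1280, and with 1 array left out the counts were 2027 to 3351 for DOX, 861 to 1235 for RA and 3189 to 4444 for RA against DOX. Of the members called, 2 of 5 after DOX (ITGA7 and ITGAV), 2 of 5 after RA (ITGB5 and LAMA2) and 6 of 10 in RA against DOX were called in every setting that measured them, and 5, 5 and 9 kept their sign in every one. The sign changed for LAMC3 in RA against DOX (0.00101) and for ERBIN after DOX (0.0700), both without x_at and s_at probe sets, where another probe set stands for the gene. ITGB5 in RA against DOX was -0.07 and not called in that setting. LAMA5 was called higher in 5 settings after DOX and in 4 after RA.

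Arrays are numbered 1 to 3 in each condition. Deviations of same-numbered arrays correlated at -0.103 to 0.199 and those of other pairs at -0.247 to 0.133. These ranges overlap and do not settle whether the numbers are pairs. The main fit did not take them as pairs. With the number as a replicate block the counts of called members were 5 after DOX, 4 after RA (without LAMC1) and 11 in RA against DOX. Dim probe sets limit what could be seen: 20 of 35 members lay below the median of all genes.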
